A study of Mus musculus with 2 samples.

Results

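Thbs1, Plaur, Vwa1, Pgf, Tnfaip2, Vps37b and 2900052N01Rik are 7 of the 27998 genes counted in single macrophages of the mouse small intestine. They were chosen by their expression in the same cells: they led a cluster made up mostly of knockout cells in an earlier grouping of these data. Their levels in the genotypes and their joint presence in cells are therefore given as a description, with no test. The study compared 1 library of wild-type (WT) cells with 1 library of CCR2-/- cells. Ccr2 encodes the chemokine receptor that monocytes need to leave bone marrow. The WT animals were male C57BL/6J mice from Janvier, and the CCR2-/- animals were JAX strain 004999 bred in-house. The sex of the knockout animals and the ages were not given, and breeding and genotype were the same split and cannot be told apart. Each library holds cells from a pool of 3 to 4 mice. Both sorts took live CD45+ cells that carried CD11b, MHCII and CD64 and lacked CD3, TCRb, B220, SiglecF, Ly6C and Ly6G. Because Ly6C was in the lineage mixture, Ly6C-bearing monocytes were removed from both genotypes before sequencing. The WT cells were run on 2 lanes of the same cell preparation, which are technical and not biological repeats.

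Macrophages of the gut wall are known for clearing cells and microbes, for supporting the vessels and nerves of the wall, and for being renewed in large part from blood monocytes. Thbs1, Pgf and Vwa1 encode secreted proteins, Plaur a receptor at the cell surface, Tnfaip2 and Vps37b proteins inside the cell, and 2900052N01Rik is annotated as a long noncoding RNA. Fos and Egr1 encode transcription factors, and Dusp1 a phosphatase, whose transcripts appear within minutes of a stimulus and also during the handling of tissue. They belong to the immediate-early genes, and their share of the counts is given beside the 7 genes throughout.

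The WT library kept 3016 of 3054 deposited cells and the knockout library 2612 of 2774, after removal of cells with fewer than 200 genes or more than 10% mitochondrial counts. The WT cells were deeper, with a median of 6129 unique molecular identifiers (UMIs, 1 per captured transcript end) against 2439. The libraries also stood apart in measures of RNA content. Fos, Egr1 and Dusp1 took 0.249% of UMIs in WT and 1.08% in knockout, Malat1 (a nuclear noncoding RNA) took 3.57% and 8.30%, ribosomal protein genes 20.1% and 12.3%, and mitochondrial transcripts 3.08% and 4.13%. Their part in the differences below was not tested. Ccr2 itself was at 331 UMIs per 1000000 (counts per 1000000 UMIs of the library, CPM) in WT and 6.88 in knockout, where 50 UMIs remained, and whether the counted 3′ end lies in the deleted stretch is not given in the sources used here. All 8 macrophage markers examined were detected, with a summed level of 14277 CPM in WT and 10716 in knockout. Of 5 neutrophil markers, S100a8, S100a9 and Ly6g were at 0 in both, and the highest, Csf3r, was at 33.6 CPM in WT and 41.6 in knockout. Summed markers of monocytes were at 699 and 187 CPM, of fibroblasts at 27.9 and 245, of endothelium at 52.3 and 191, and of red cells at 761 and 7429. Those of plasma cells were at 1660 and 1791, mostly from Jchain at 1600 and 1756, and those of epithelium at 173 and 196. The lanes of the WT library shared 5 barcode sequences, the first lane and the knockout library shared 6, and the second lane and the knockout library shared 0.

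Plaur is shown by sequence for its motif matches, and 2900052N01Rik as a window with none, and neither lies in annotated untranslated sequence. Each line gives the 250 bases before the start as RefSeq annotates it on GRCm38.p6. For 2900052N01Rik the GENCODE gene starts earlier, at position 46913493, so the last bases of its window lie inside the gene given below. Capitals mark matches on either strand to AP-1 (TGACTCA), CRE (TGACGTCA) and EGR (GCGNGGGCG) motifs and to the NF-kappaB and CArG motifs by name. Plaur lies at chr7:24462233-24462482, forward strand, and 2900052N01Rik at chr9:46913353-46913602, forward strand.
Plaur: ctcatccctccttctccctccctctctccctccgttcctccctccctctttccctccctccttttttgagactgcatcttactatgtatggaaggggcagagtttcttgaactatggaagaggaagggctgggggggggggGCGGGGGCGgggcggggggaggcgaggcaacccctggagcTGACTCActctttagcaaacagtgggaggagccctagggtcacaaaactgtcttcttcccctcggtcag
2900052N01Rik: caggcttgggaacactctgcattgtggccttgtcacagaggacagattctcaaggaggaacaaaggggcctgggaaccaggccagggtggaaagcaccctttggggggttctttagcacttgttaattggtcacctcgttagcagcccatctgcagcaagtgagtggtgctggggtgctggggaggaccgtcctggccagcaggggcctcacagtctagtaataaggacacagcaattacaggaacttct
The Plaur window held an EGR match from 109 to 101 bases before the start and an AP-1 match from 69 to 63 bases before it. The 2900052N01Rik window held no match to any of the 5 motifs. Over the 32851 windows of the same length in the table, 4.46% held the AP-1 motif, 1.55% the CRE motif, 4.70% the EGR motif, 7.25% the NF-kappaB motif and 1.47% the CArG motif. The Tnfaip2 window held 1 NF-kappaB match on the reverse strand, from 24 to 15 bases before the RefSeq start. That match lies inside the GENCODE gene, which starts earlier, in annotated untranslated sequence. Neither Pgf window held a match. In all, 4 of the 7 genes were found in the table. A match describes letters and not binding.

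All 7 genes were at a higher level in the knockout library than in WT, and for each the knockout lay above both WT lanes. Their summed level was 632 CPM in WT (673 in the first lane and 534 in the second) and 2439 in knockout. At an equal depth of 1000 UMIs per cell, 40.8% of WT cells and 72.8% of knockout cells held at least 1 UMI of any of the 7 genes. Of 7401 genes with a mean of at least 10 CPM, 9.04% were at least 2-fold higher in knockout and 3.12% at least 2-fold lower. The 7 genes were all among the former, a count that the choice of members fixes. Their median log2 ratio of knockout to WT was 1.86, against 0.18 over all genes tested. Between the WT lanes 0 of the 7 differed by 2-fold, where 0.0428% of genes were at least 2-fold higher and 0.684% at least 2-fold lower in the second lane. All intervals here are exact 95% intervals that cover counting error only, not the spread between animals, because each genotype is 1 pooled library.

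**Figure D1:**
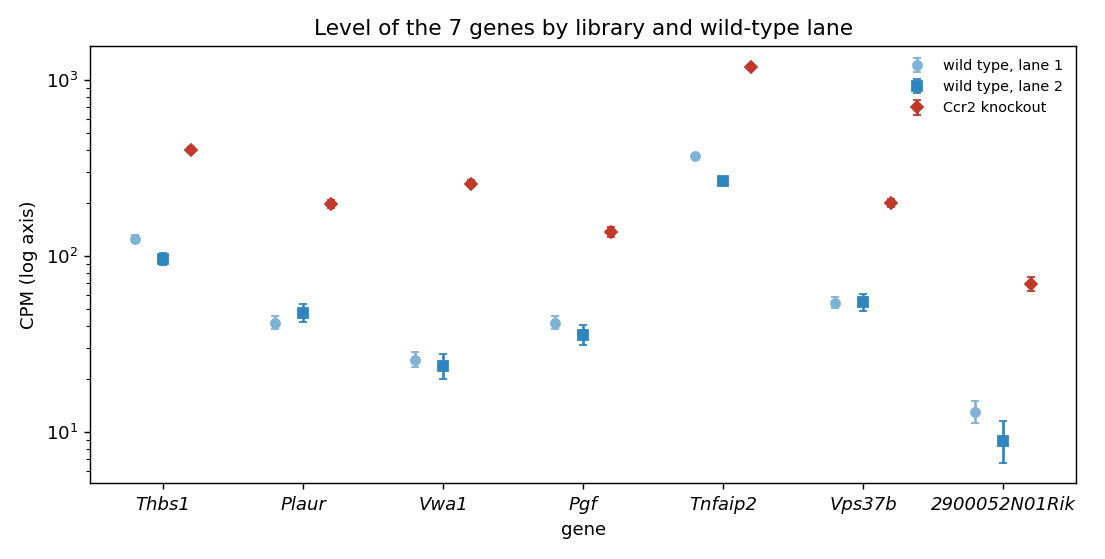
Level of each of the 7 genes in CPM, on a log axis, for the 2 lanes of the WT library and for the knockout library. Bars are exact 95% Poisson intervals over counts. The knockout point lies above every WT point for each gene.

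Thbs1 (ENSMUSG00000040152, chr2:118111876-118127133 on GRCm38, forward strand) encodes thrombospondin-1, a secreted glycoprotein that binds CD36, CD47 and integrins and releases TGF-beta from its latent form. Thbs1 was at 117 CPM in WT (interval 112 to 121), at 125 and 96.3 in its lanes, and at 401 (387 to 416) in knockout. The second WT lane was the lowest and the knockout library stood well above both lanes. The knockout to WT log2 ratio was 1.77 (1.70 to 1.86), a 3.42-fold difference. At 1000 UMIs per cell, 10.7% of WT and 26.4% of knockout cells held a Thbs1 UMI.

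Pgf (ENSMUSG00000004791, chr12:85166635-85177790, reverse strand) encodes placental growth factor, a member of the VEGF family that binds the receptor Flt1 and the co-receptor Nrp1. Pgf was at 40.0 CPM in WT (37.4 to 42.9), at 41.9 and 35.7 in the lanes, and at 137 (129 to 146) in knockout. The lanes differed little and the knockout library was apart from both, with a log2 ratio of 1.75 (1.64 to 1.91). The neighbouring gene Eif2b2, a translation initiation factor subunit, was at 58.9 and 72.1 CPM, a log2 ratio of 0.29.

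Vwa1 (ENSMUSG00000042116, chr4:155768149-155774698, reverse strand) encodes a secreted protein with von Willebrand factor A domains that is found in basement membranes and cartilage. Vwa1 was at 25.1 CPM in WT (23.0 to 27.4), at 25.8 and 23.6 in the lanes, and at 257 (245 to 269) in knockout. The lanes lay within each other's counting error. The log2 ratio of 3.30 (3.21 to 3.50) was the highest of the 7 genes and the 16th highest of the 7401 genes. Atad3a, the neighbouring gene, was at 13.2 and 11.3 CPM, a log2 ratio of -0.21. The noncoding genes that overlap Vwa1 on the other strand, Atad3aos and Gm26840, were at 1.31 and 0.551 and at 0 and 0.138 CPM, and strand handling by the submitters' counting was not given in the sources used here.

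Plaur (ENSMUSG00000046223, chr7:24462484-24475968, forward strand) encodes the urokinase receptor, which holds the plasminogen activator urokinase at the cell surface. Plaur was at 43.5 CPM in WT (40.7 to 46.4), at 41.9 and 47.3 in the lanes, and at 198 (188 to 209) in knockout. It was one of 2 genes, with Vps37b, for which the second lane was not below the first, and in both the lanes lay within counting error of each other. The log2 ratio was 2.16 (2.07 to 2.31), and 3.88% of WT and 15.9% of knockout cells held a Plaur UMI at 1000 UMIs per cell.

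Tnfaip2 (ENSMUSG00000021281, chr12:111442469-111455018, forward strand) encodes a protein first described as induced by tumour necrosis factor and linked to the exocyst and to thin membrane tubes between cells. Tnfaip2 was at 340 CPM in WT (333 to 348), at 371 and 268 in the lanes, and at 1176 (1151 to 1201) in knockout. The second lane was below the first, with a log2 difference of -0.47, against 1.78 (1.74 to 1.83) between knockout and WT. A Tnfaip2 UMI was found in 26.4% of WT and 51.0% of knockout cells at equal depth. The neighbouring gene Exoc3l4 was at 15.8 and 16.7 CPM.

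Vps37b (ENSMUSG00000066278, chr5:124004641-124032270, reverse strand) encodes a subunit of ESCRT-I, the complex that sorts ubiquitin-tagged membrane proteins to the lysosome. Vps37b was at 54.4 CPM in WT (51.3 to 57.7), at 54.3 and 54.7 in the lanes, and at 199.9 (190 to 210) in knockout. The lanes were nearly the same and the knockout library lay apart, with a log2 ratio of 1.86 (1.76 to 1.99). Vps37b overlaps Hip1r on the opposite strand, and Hip1r was at 3.58 and 5.64 CPM.

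2900052N01Rik (ENSMUSG00000099696, chr9:46913493-46927366, forward strand) is annotated as a long intergenic noncoding RNA and has no function that can be stated here. It lies on the same chromosome as Ccr2 (chr9:124101950-124113557). 2900052N01Rik was at 11.8 CPM in WT (10.4 to 13.4), at 13.0 and 8.84 in the lanes, and at 69.2 (63.3 to 75.6) in knockout. The WT level rested on 244 UMIs over the whole library and the knockout level on 503. The knockout library was above both lanes, with a log2 ratio of 2.46 (2.33 to 2.78).

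Other genes of the pathways to which the 7 belong were less uniform, and each list is described by its counts and median because 1 library per genotype allows no test. The counts leave out the 7 members, whose direction their choice fixes, and stand beside 9.04% of all genes at least 2-fold higher and 3.12% at least 2-fold lower, with a median of 0.18. In the plasminogen list 2 of 8 other genes were higher and 2 lower in knockout, with a median log2 ratio of -0.02. Plau, which encodes urokinase, was at 12.4 CPM in WT and 66.8 in knockout, and the plasminogen receptor subunits S100a10 and Anxa2 were at 61.0 and 22.7 and at 42.7 and 17.9. The urokinase ligand and its receptor were thus both higher in knockout, and the S100a10 and Anxa2 pair was lower. In the thrombospondin list of ligands and receptors, 4 of 11 others were higher and 0 lower, with a median of 0.29, and the scavenger receptor Cd36 was at 41.4 and 140 CPM. In the VEGF list 1 of 2 others was higher, Nrp2 at a log2 ratio of 1.02, while Nrp1 was at 0.82. The VEGF receptors Flt1, at 1.55 and 15.3 CPM, and Kdr, at 0.967 and 14.5, are endothelial genes and were under the level required for counting.

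Among the ESCRT-I subunits, 0 of the 5 others tested were at least 2-fold higher or lower, with Ubap1 at a log2 ratio of 0.47 and Vps37a at 0.28. So few genes cannot be set apart from the shares over all genes. Vps37c and Vps37d were under the level required for counting, and Vps28 was not found among the genes counted. In the NF-kappaB list, to which Tnfaip2 belongs, 7 of 20 others were higher and 1 lower, with a median of 0.63. Among the former were Tnfaip3 (59.5 and 387 CPM), which encodes a ubiquitin-editing enzyme, and Nfkbiz (230 and 1173), and Tnip3 at -1.05 was the latter. Nfkbiz encodes a nuclear protein of the NF-kappaB inhibitor family. In the basement membrane list, drawn up around Vwa1, the 2 others past the level minimum were higher, namely Sparc (11.0 and 77.6 CPM) and Col4a1 (2.56 and 18.9). Sparc and Col4a1 are made by fibroblasts and endothelium, whose summed markers were also higher in knockout as given above. In the list of immediate-early genes 10 of 10 were higher, with a median of 1.82 and with Egr1 at 3.03, and in the hypoxia list 1 of 7, Hilpda at 1.37, with a median of 0.15.

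The size of the genotype difference depended on which cells were compared, and it did so unequally over the 7 genes. In cells with 2000 to 4000 UMIs, where depth is close, all 7 stayed at least 2-fold higher in knockout, against 5.86% of genes, but Thbs1 was at a log2 ratio of 1.01 and Vwa1 at 3.95. In cells of the C1q gate (at least 0.5% of UMIs from the complement genes that mark resident macrophages, which held 87.5% of WT and 84.5% of knockout cells), all 7 were higher, against 9.08% of genes. After seeing the data, a further comparison was made among cells that had similar immediate-early, ribosomal and Malat1 counts. It took cells with 2 to 7 Fos, Egr1 and Dusp1 UMIs, 100 to under 200 ribosomal UMIs and 25 to 99 Malat1 UMIs per 1000, which were 581 in WT and 228 in knockout. In those cells 5 of the 7 were at least 2-fold higher in knockout, against 7.56% of genes. Vwa1 was at 33.1 and 252 CPM in WT and knockout there, a log2 ratio of 2.89, and 2900052N01Rik at 21.05 and 68.3, a ratio of 1.65. Plaur was at 56.1 and 163, a ratio of 1.52, and Tnfaip2 at 479 and 1043, a ratio of 1.12. Thbs1, at 158 and 278, and Pgf, at 71.9 and 125, were the genes under 2-fold, with ratios of 0.81 and 0.79. The ratios of Thbs1 and Pgf were thus less than 1 log2 unit in matched cells, and Vwa1 kept most of its ratio.

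**Figure D2:**
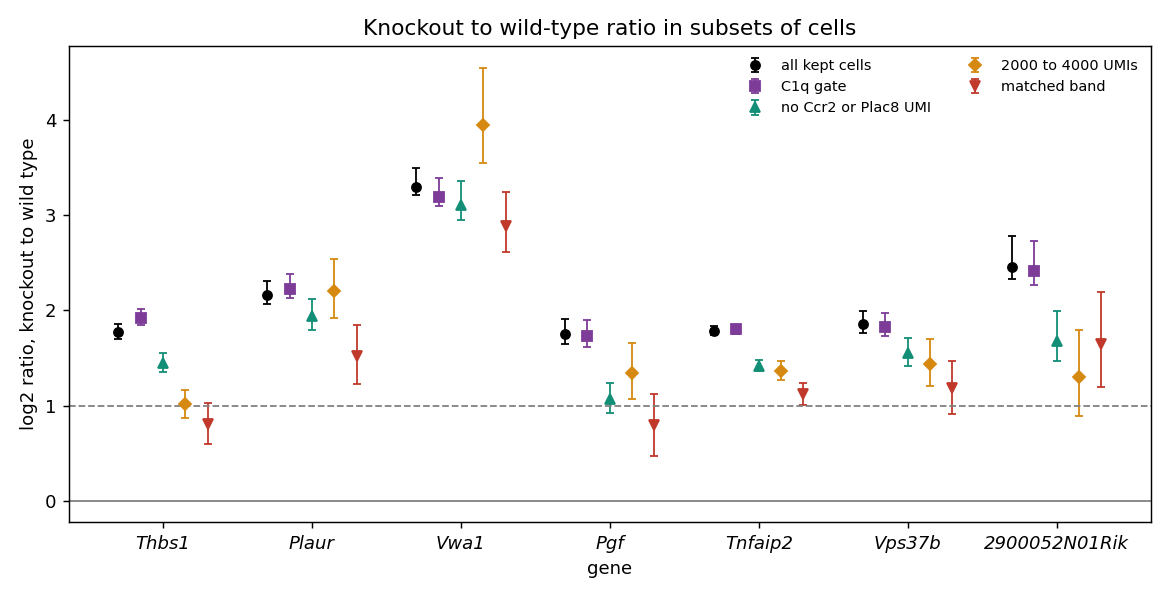
Log2 ratio of knockout to WT level for each gene over all cells and in 4 narrower selections of cells; bars are exact 95% intervals for counting error and the dashed line marks 2-fold. Vwa1 lies highest in each selection, and Thbs1 and Pgf fall under the dashed line in the matched cells.

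Pairs of the 7 genes were found in the same cells more often than independent placement gives, in WT as well as in knockout, and pairs with Vwa1 were nearest to independent placement. Counts of cells with 3 or more genes also lay above the expected number at 1000 UMIs per cell, but in knockout not beyond counting error at greater depth. Counts of cells with 2 or more lay above it at 1000 UMIs in WT only. In each library all cells were thinned to 1000 UMIs, which left out 1 WT and 196 knockout cells, and the number of cells holding several genes was set beside the number expected if each gene were placed independently. In WT, 76 cells (2.52%) held 3 or more of the 7, against 0.860% expected, a ratio of 2.93 (2.31 to 3.66). The ratio was 3.04 in the first lane and 2.62 in the second. In knockout, 535 cells (22.1%) held 3 or more, against 15.7% expected, a ratio of 1.41 (1.30 to 1.52). Cells with none of the 7 were also more frequent than expected, at 59.2% against 54.7% in WT and 27.2% against 16.5% in knockout. Cells with exactly 1 were fewer, at 29.5% against 36.5% and 28.8% against 37.2%. At this depth both libraries thus had more cells at each end of the scale than independent placement gives. The ratio of observed to expected cells with none of the 7 was larger at greater depth. It went from 1.08 at 1000 UMIs to 1.44 at 4000 in WT, and from 1.65 to 5.37 in knockout. The excess of cells with 3 or more was smaller or absent at greater depth. For 3 or more genes the WT ratio was 2.02 at 2000 UMIs and 1.41 (1.27 to 1.55) at 4000. The knockout ratio was 1.06 (0.998 to 1.12) at 2000 UMIs, and at 4000, where 544 knockout cells remained, it was 0.88 (0.82 to 0.95), below the expected number. The count of 2 or more was at 1.27 times the expected in WT (1.15 to 1.41) and 0.95 times in knockout, and its direction changed with the depth to which cells were thinned, being 0.97 in WT at 4000 UMIs.

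Among the 21 pairs, 17 in WT lay above the expected number, 11 of them with an interval wholly above 1, and no interval lay wholly below 1. The commonest WT pair was Thbs1 with Tnfaip2, in 140 cells against 85.5 expected, a ratio of 1.64 (1.38 to 1.93). Pgf with Tnfaip2 was in 67 cells against 34.6, and Pgf with Vps37b in 21 against 7.91. All 11 of these WT pairs were among the 15 that do not include Vwa1, whose summed count was 498 cells against 285 expected. The 6 pairs with Vwa1 summed to 42 against 37.9, a ratio of 1.11, and Vwa1 with Plaur was in 0 cells against 2.79 expected. In knockout all 21 pairs lay above the expected number, 16 with an interval above 1. There the 15 pairs without Vwa1 summed to 2217 against 1543, a ratio of 1.44, and the 6 with Vwa1 to 711 against 606, a ratio of 1.17. Among the latter, Vwa1 with Pgf and Vwa1 with Vps37b had intervals above 1. Within the C1q gate the 15 pairs without Vwa1 were at 1.74 in WT and 1.42 in knockout, and the 6 with it at 1.15 and 1.10, where none had an interval above 1 in either library. Thinned to 4000 UMIs, the 15 pairs were at 1.44 and 1.34, so the excess of these pairs was seen at the greater depth as well. No doublets were removed for these counts. Removing the 43 WT and 55 knockout cells that Scrublet scored highest left the ratios for 2 or more genes at 1.27 and 0.95. The pair ratios and the ratios for 3 or more genes without those cells are not given here.

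**Figure D3:**
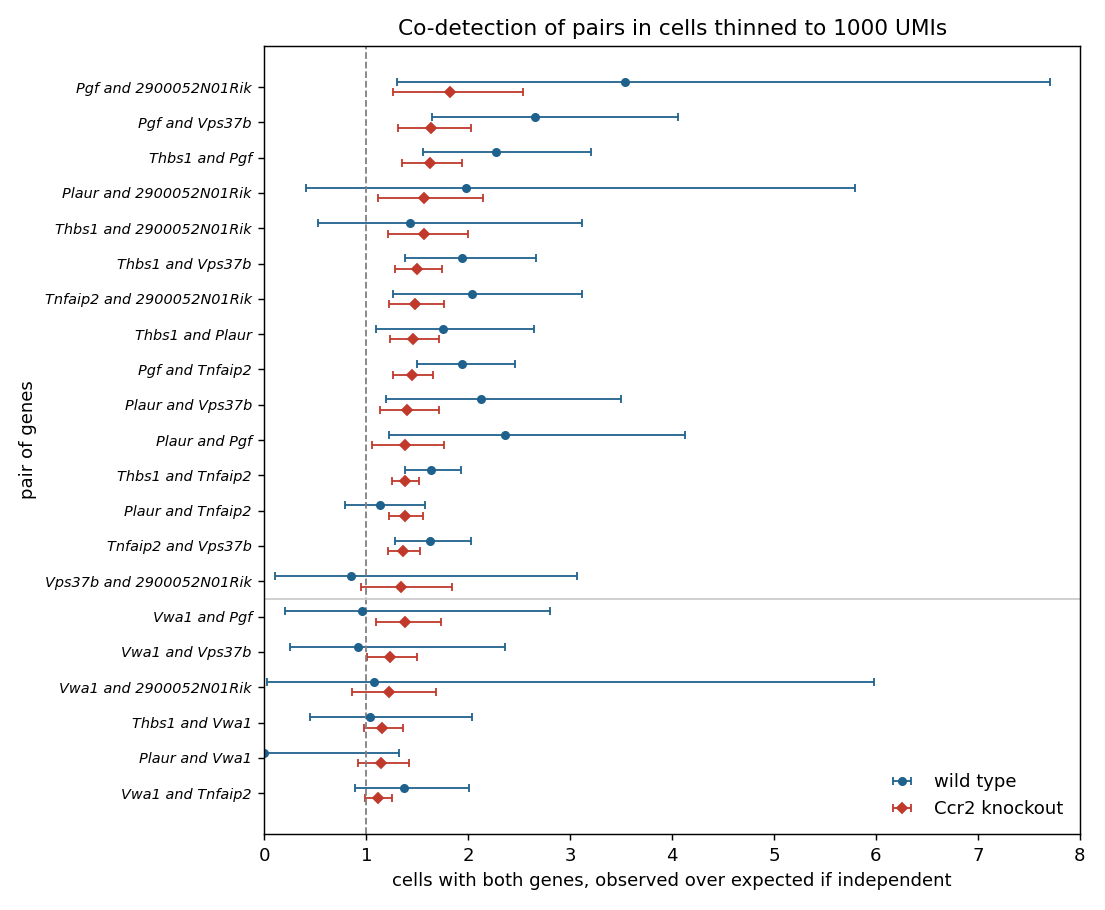
Cells holding both genes of each of the 21 pairs, as a ratio of observed to expected number after thinning to 1000 UMIs, for WT and knockout; bars are exact 95% Poisson intervals. Pairs without Vwa1 lie mostly to the right of 1 in both libraries, and those with Vwa1 lie near 1 in WT.

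Levels of each gene by the number of other members in the same cell gave the same picture. In WT cells that held none of the other 6, Thbs1 was at 75.7 CPM, and in those that held 2 or more it was at 369, which is 4.88-fold higher. This fold was 5.07 in the first lane and 4.04 in the second. For Pgf the WT fold was 4.90, for Plaur 3.52, for Tnfaip2 3.47, for Vps37b 3.39 and for 2900052N01Rik 3.35, the last resting on few UMIs and standing at 1.60 in the second lane. Vwa1 differed, at 24.9 and 33.5 CPM and 1.35-fold. In knockout the folds were 4.32 for Thbs1, 5.29 for Pgf, 4.26 for Plaur, 3.15 for Tnfaip2, 4.58 for Vps37b, 8.10 for 2900052N01Rik and 1.53 for Vwa1. Correlations over thinned cells, which share their library and depth, were weaker than these folds. The r of each gene with the other 6 summed ran from 0.02 for Vwa1 to 0.21 for Tnfaip2 in WT (n = 3015 cells) and from 0.11 to 0.37 for the same genes in knockout (n = 2416 cells), and values this low in sparse counts are no finding in themselves.

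The genes most correlated with the summed level of the 7 overlapped in part between the libraries. In WT they were Rgs1 (a regulator of G-protein signalling, r = 0.31), Il1b (the cytokine interleukin-1 beta, 0.28), Adamdec1 (a metalloprotease of gut macrophages, 0.27) and Junb (0.27), followed by Btg2, Hes1, Psap, Wnt4, Ptgs2 and Zfp36, out of 2451 genes found in at least 5% of cells. In knockout they included Malat1 (0.43), Adamdec1 (0.41), Rgs1 (0.38), Il1b (0.34), Dnase1l3, Psap, Wnt4, Tspan13 and Amica1, out of 2669 genes. Adamdec1, Il1b, Psap, Rgs1 and Wnt4 were in both lists of 10, and the lists of the WT lanes shared 7. At the other end were Lyz2 (lysozyme, -0.26) and ribosomal protein genes in WT, and the chemokine Pf4 (-0.33) and Cst3 (-0.32) in knockout. Of the immediate-early genes, Fos was at 0.22 and Dusp1 at 0.16 in WT, and in knockout they were at 0.00 and -0.15, with Egr1 at 0.04 and -0.24.

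The relation of the 7 genes to immediate-early transcripts differed in shape between the libraries. Cells were placed in ranges by their Fos, Egr1 and Dusp1 UMIs per 1000. WT cells lay mainly in the low ranges, with 18.9% at 0, 21.4% at 1, 31.6% at 2 to 3, 21.8% at 4 to 7, 6.07% at 8 to 15 and 0.265% (8 cells) at 16 or more. Knockout cells lay mainly in the high ranges, with 1.49%, 2.19%, 6.79%, 20.5%, 42.2% and 26.8% in the same order. Thbs1 in WT was at 46.9, 69.5, 104, 197 and 361 CPM over the first 5 ranges, with each value above the one before. That is a 7.71-fold difference between the first and the last of these, and 6.08-fold in the first lane and 17.7-fold in the second. The same WT fold was 3.66 for Pgf (3.90 and 2.27 in the lanes), 3.01 for Plaur (2.82 and 3.85), 2.96 for Tnfaip2 (2.67 and 3.76) and 2.64 for Vps37b (2.42 and 3.31). Vwa1 showed none of this in WT, at 23.1, 26.2, 25.3, 26.6 and 21.1 CPM, and 2900052N01Rik was between 9.96 and 17.9 with no order. In the second lane the range of 8 to 15 held 47 cells, with 3 Vwa1 UMIs and 1 of 2900052N01Rik. In WT, Thbs1, Pgf, Plaur, Tnfaip2 and Vps37b were thus higher at 8 to 15 immediate-early UMIs than at 0 in both lanes. The share of all genes that were higher there was not computed.

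In knockout the highest levels were in the middle ranges. Thbs1 was at 117, 149, 391, 480, 407 and 371 CPM over the 6 ranges, and Tnfaip2 at 524, 491, 1214, 1457, 1224 and 877. Pgf was highest at 4 to 7 UMIs (193) and was at 87.2 in cells with 16 or more. Vwa1 was at 138, 226, 319, 309, 281 and 149. The ratio of the level at 16 or more UMIs to that at 4 to 7 ran from 0.45 for Pgf to 0.77 for Thbs1. The share of all genes that were lower there was not computed, so the direction is not read as particular to the 7. The first 2 ranges held only 36 and 53 knockout cells.

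Within ranges of equal immediate-early UMIs the genotypes still differed, by amounts that varied with the gene. Among cells with 2 to 3 UMIs 7 of the 7 genes were at least 2-fold higher in knockout, against 11.0% of genes, and among those with 4 to 7 UMIs 7 of 7, against 7.88%. Among cells with 8 to 15 UMIs 4 of 7 were, against 7.06%. The Vwa1 log2 ratio lay between 2.53 and 3.68 over the first 5 ranges. That of Thbs1 was 1.91 at 2 to 3 UMIs, 1.28 at 4 to 7 and 0.17 at 8 to 15, where its interval included 0 (-0.00 to 0.35). Pgf was at 1.98 at 4 to 7 UMIs and 0.51 at 8 to 15. Thbs1 thus did not differ beyond counting error between the genotypes in cells with 8 to 15 UMIs, and Vwa1 did so in every one of these ranges. In the 36 knockout cells and 570 WT cells with none of these UMIs, 5 of the 6 genes past the level minimum were at least 2-fold higher, against 14.9% of genes, and with 1 such UMI 5 of 7, against 18.0%. In the former cells 2900052N01Rik was at 10.4 CPM in WT and 7.28 in knockout, a log2 ratio of -0.46 (-5.85 to 2.05) that rests on few UMIs.

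**Figure D4:**
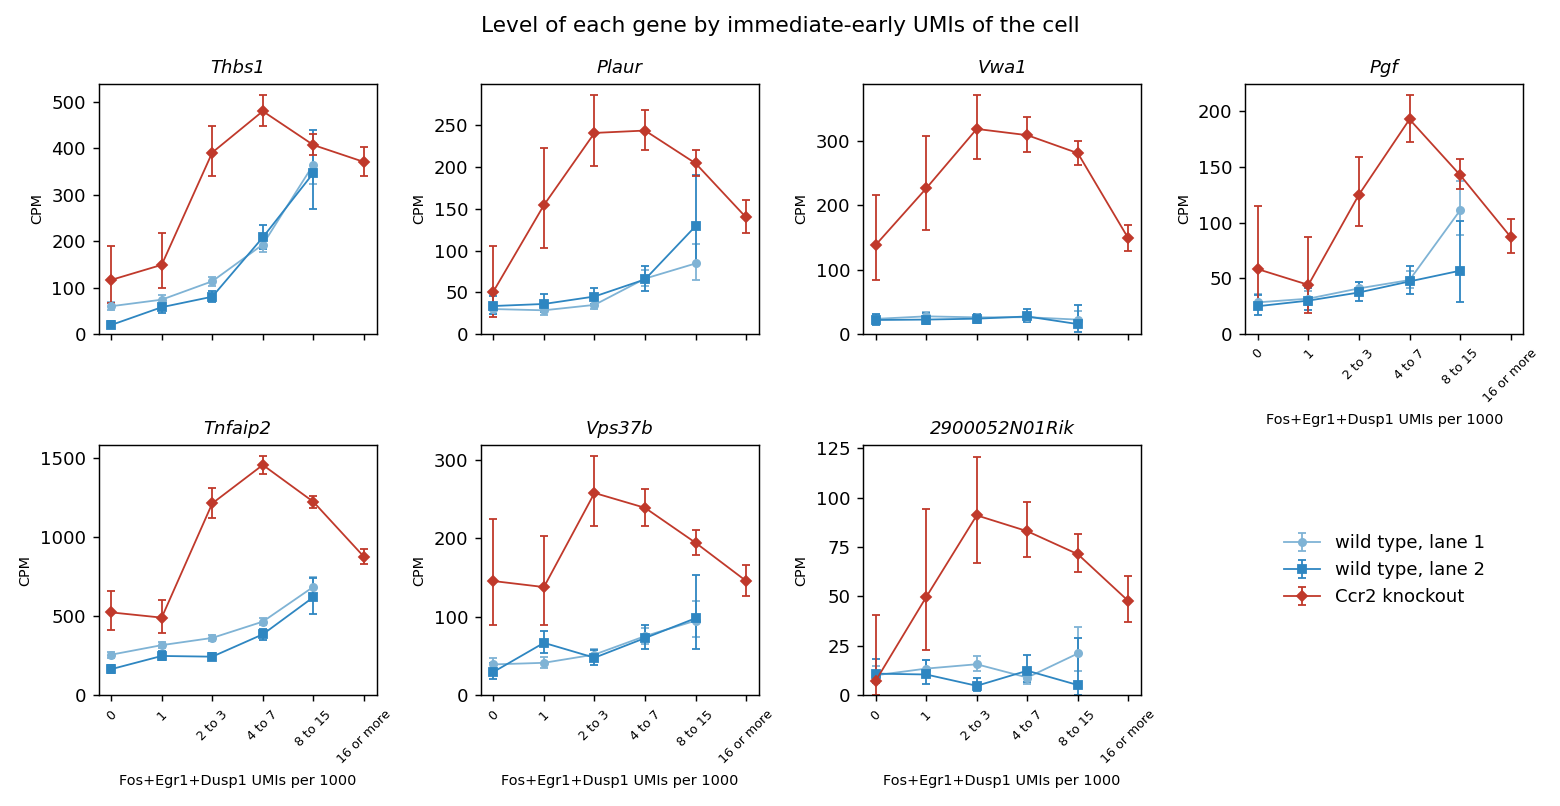
Level of each gene, in CPM, by the number of Fos, Egr1 and Dusp1 UMIs per 1000 in the cell, for each WT lane and for knockout. Bars are exact 95% Poisson intervals, and the last WT range, which holds 8 cells, is not drawn. Thbs1 in WT goes from 46.9 to 361 over the first 5 ranges, while Vwa1 in WT stays between 21.1 and 26.6.

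Malat1 and ribosomal counts also moved with the 7 genes within each library. With Malat1 under 25, at 25 to 49, at 50 to 99 and at 100 or more UMIs per 1000, the summed level of the 7 was 449, 532, 1107 and 1912 CPM in WT and 939, 1045, 2096 and 4178 in knockout. For Vwa1 the WT values were 11.9, 23.8, 45.8 and 98.9, and the knockout values 30.7, 111, 229 and 446. Vwa1 was therefore higher in cells with more Malat1 in both libraries, and Malat1 was its strongest correlate in both (r = 0.10 in WT and 0.29 in knockout). With ribosomal counts under 100, at 100 to under 150, at 150 to under 200 and at 200 or more, the summed level was 1410, 1041, 645 and 423 in WT and 3654, 2333, 1103 and 926 in knockout. The summed log2 ratio of knockout to WT was between 0.92 and 1.13 within the Malat1 ranges and between 0.77 and 1.37 within the ribosomal ranges, against 1.95 over all cells. For Vwa1 it was between 1.29 and 2.30 and between 2.22 and 3.19. Single members lost the difference in cells with ribosomal counts of 200 or more. There Thbs1 was at 89.1 CPM in WT and 85.2 in knockout, a log2 ratio of -0.07 (-0.52 to 0.36), Pgf was at 0.26 with an interval that included 0, and 2900052N01Rik at 2.54 and 1.81 CPM, which is too few UMIs for a direction. The part of either measure in the differences was not tested.

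Tnfaip2, Thbs1 and Pgf were far lower in cells with lymphoid transcripts than in macrophages, and Vwa1 was at the same level in both. Free RNA in the droplets adds UMIs to every cell, so cells below the C1q gate with at least 3 UMIs per 1000 of lymphoid genes were used as cells that should lack macrophage transcripts. There were 26 in WT, with a median of 8353 UMIs, and 33 in knockout, with a median of 2215, against medians of 6368 and 2693.5 in the C1q gate. Tnfaip2 was at 16.8 CPM in the lymphoid cells and 348 in the C1q gate of WT, and at 56.5 and 1219 in those of knockout. At 1000 UMIs per cell 6.06% of the knockout lymphoid cells and 52.7% of the knockout C1q cells held a Tnfaip2 UMI. Thbs1 in the knockout lymphoid cells was at 47.1 (15.3 to 110) against 415 in the C1q gate, and Pgf, with 2 UMIs, at 18.8 (2.28 to 68.0) against 144. 2900052N01Rik had 0 UMIs in them, which allows up to 28.2 CPM, against 72.4 in the C1q gate. Plaur was at 104 (51.7 to 185) in the lymphoid and 209.6 in the C1q gate of knockout, and Vps37b at 151 (86.1 to 245) and 200.1, whose intervals overlap. Vwa1 was at 29.5 (11.9 to 60.7) in the lymphoid and 26.2 in the C1q gate of WT, and at 245 (160 to 359) and 252 in those of knockout. A Vwa1 UMI was found in 21.2% of the knockout lymphoid cells and 19.1% of the knockout C1q cells. The Vwa1 level in macrophages could thus not be told from that in the lymphoid cells in either library. The lymphoid levels rested on 7 UMIs in WT and 26 in knockout. Whether Vwa1 UMIs in macrophages are their own expression or free RNA was not tested. In the 17 knockout cells with endothelial transcripts Vwa1 was at 636 CPM (445 to 880), above its level in the C1q gate.

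**Figure D5:**
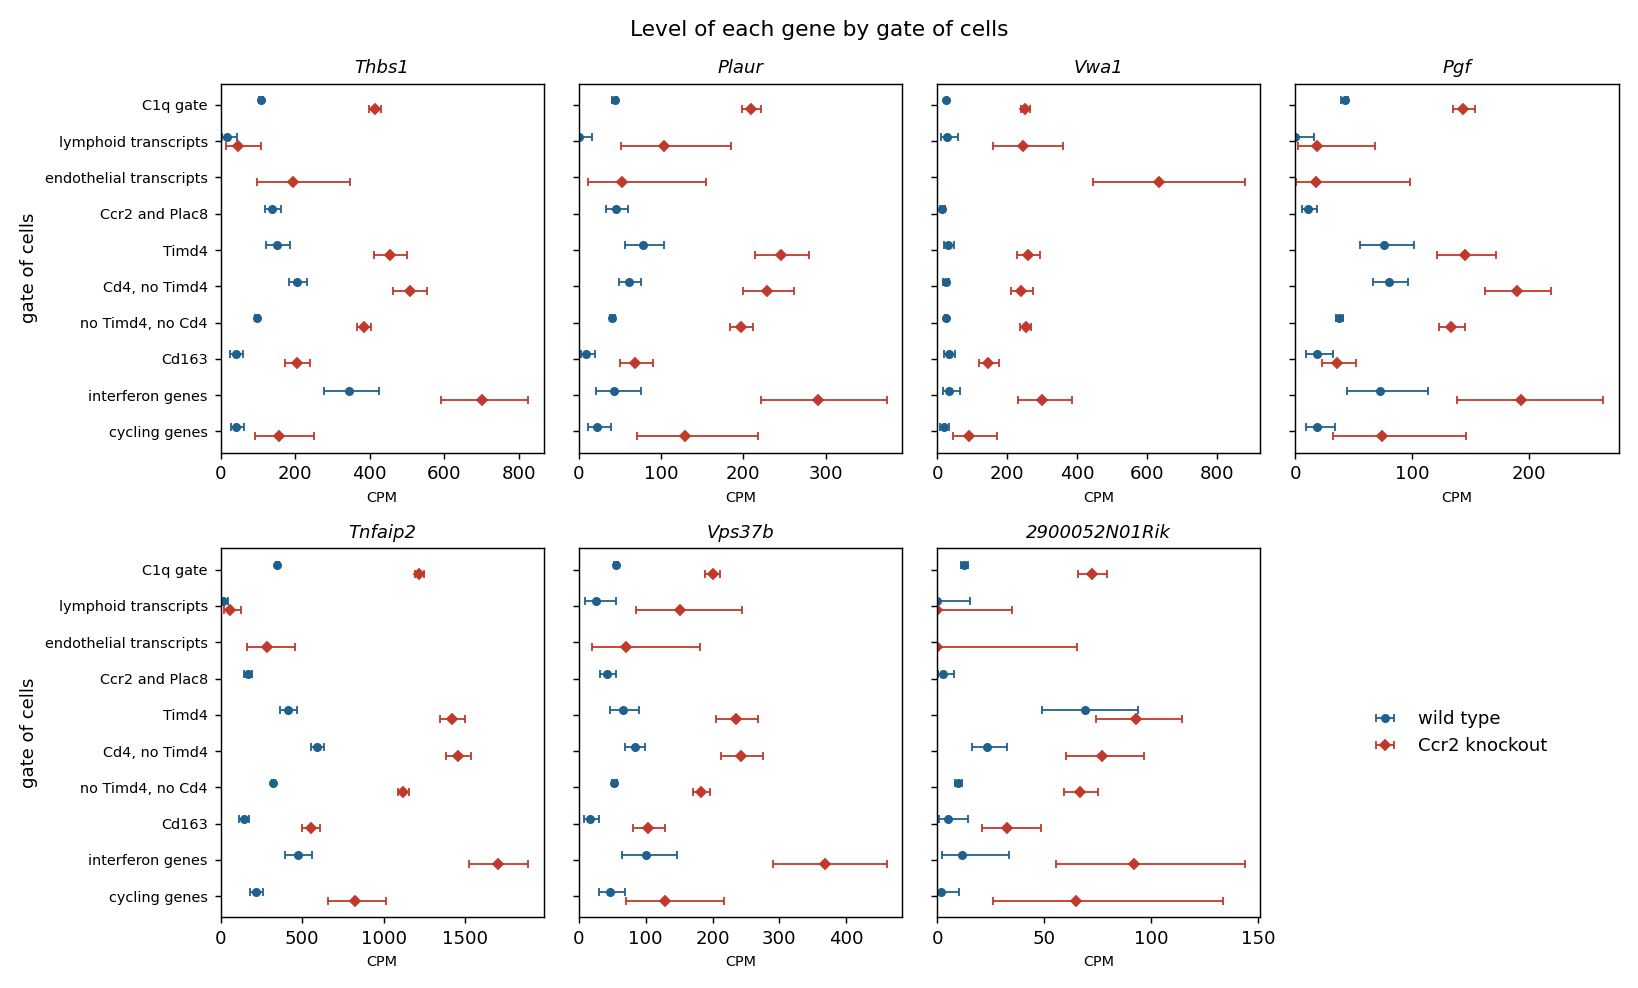
Level of each gene, in CPM, in gates of cells set by marker transcripts, for WT and knockout; bars are exact 95% Poisson intervals. Tnfaip2, Thbs1 and Pgf are low in cells with lymphoid transcripts, where Vwa1 is as high as in the C1q gate.

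Among macrophages of the C1q gate, the summed level of the 7 genes was lower in cells with Cd163 and higher in cells with Cd4 or Timd4 than in the whole gate, in both libraries. Cd163, a haemoglobin scavenger receptor, marks macrophages of the deeper gut wall, and Timd4 and Cd4 are known as marks of long-lived gut macrophages. The summed level of the 7 in cells with a Cd163 UMI was 265 CPM in WT (106 cells) and 1142 in knockout (262 cells), against 637 and 2513 in the whole gate. Tnfaip2 alone gave 348 and 1219 CPM of these gate levels, so the sum rests largely on it. Thbs1 was at 41.2 and 204 in Cd163 cells, Plaur at 8.24 and 68.0, and Tnfaip2 at 143 and 552. Vwa1 in WT was the exception, at 33.0 (20.1 to 50.9) against 26.2 in the gate, and in knockout it was at 146 against 252. Fos was at 1393 and 7042 in Cd163 cells and 1795 and 6286 in the gate, so the lower level of the 7 in knockout Cd163 cells stood beside a higher Fos level. In cells with Cd4 and no Timd4 (254 in WT and 344 in knockout) the sum was 1073 and 2941, with Thbs1 at 207 and 508 and Tnfaip2 at 594 and 1456. In cells with Timd4 (97 and 315) the sum was 885 and 2852. Vwa1 was not higher in the cells with Cd4 and no Timd4, at 24.7 and 240 CPM. In knockout Timd4 cells Vwa1, at 259, and Pgf, at 145, were near their gate levels of 252 and 144. 2900052N01Rik in WT was at 68.9 in Timd4 cells, 23.3 in cells with Cd4 alone and 9.82 in cells with neither, an order that in knockout was 92.8, 76.9 and 66.9. The difference between Timd4 cells and the rest was thus wider in WT than in knockout for that gene, which was not tested.

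Cells with Ccr2 and Plac8, transcripts of cells recently derived from monocytes, were 150 in WT and 3 in knockout. Ccr2 is the gene targeted in the knockout, so the small knockout count cannot be read as a lack of such cells. In the WT cells Thbs1 was at 139 CPM, Plaur at 44.9, Tnfaip2 at 166, Pgf at 10.8 and Vwa1 at 14.4. Tnfaip2 and Pgf were below and Thbs1 above the levels of 348, 42.3 and 108 in the WT C1q gate. With all cells that held Ccr2 or Plac8 left out of both libraries, the log2 ratio of the summed level was 1.57, with Vwa1 at 3.11, Pgf at 1.06 and 2900052N01Rik at 1.68. This used unthinned counts, so deeper cells were left out more readily. Ccr2 UMIs were nearly absent in knockout, so there the selection acted mainly through Plac8. The selection kept 1378 WT and 2368 knockout cells, with medians of 4953.5 and 2373 UMIs. Cells with many interferon-response transcripts (42 in WT and 66 in knockout) had Thbs1 at 345 and 702 and Tnfaip2 at 472 and 1700. Cycling cells (61 and 24) had Thbs1 at 42.8 and 157 and Tnfaip2 at 216 and 824.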

How the data were processed

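The deposited matrices hold UMI counts per gene and cell, made by the authors from 10x Genomics 3′ libraries with Cell Ranger 3.0.1 and the mm10 genome, per the submitters' processing notes, and were not normalised. Cells with at least 200 genes and at most 10% mitochondrial counts were kept, and no doublets were removed. Levels are summed counts per 1000000 (CPM) with exact Poisson intervals. Log2 ratios use a pseudocount of 1 CPM. Shares and co-detection use cells thinned to 1000 UMIs (hypergeometric draws, seed 1), and expected co-detection multiplies each gene's share. A gene was counted as higher or lower at 2-fold with a mean of at least 10 CPM. The C1q gate used each cell's share of all its UMIs. Leaving out cells with Ccr2 or Plac8 used unthinned counts, so it depends on depth, and in knockout it acts mainly through Plac8. The other gates were set from thinned counts, and no cells were clustered. Named members are all 7, and partners the 10 with the highest r, of which 1 is not reported here. Each genotype is 1 library, so no test between genotypes exists. The members and lists were chosen with earlier results of these data known. Scripts used python 3.11.15, numpy 2.4.6, scipy 1.17.1, scanpy 1.11.5 (Scrublet) and matplotlib 3.10.9, and were tested on simulated data.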

Additional observations from a re-analysis of the deposited data

How the results depend on the processing

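The summed log2 ratio of knockout to WT was 1.95 over all cells, 2.02 with a stricter cell filter (500 genes, 5% mitochondrial), 1.57 without cells holding Ccr2 or Plac8, 1.48 in cells of 2000 to 4000 UMIs, 1.76 with size factors in place of totals, 1.86 and 2.19 against the first and second WT lane, and 1.23 in the matched cells, a comparison added after seeing the data. The C1q gate, doublet removal and a pseudocount of 10 left it between 1.93 and 1.97. No single gene changed direction under these settings, but within narrower ranges of cells Thbs1 and 2900052N01Rik did (-0.07 and -0.33 with ribosomal counts of 200 or more, and -0.46 for 2900052N01Rik in cells with no immediate-early UMI), all with intervals that include 0. The observed over expected number of cells with 2 or more genes in WT was 1.27, and 1.12 at 2000 UMIs and 0.97 at 4000 UMIs. In knockout it was 0.95, and 0.86 at 2000 UMIs, 0.83 at 4000 UMIs and 1.01 in the matched cells. The 4000 UMI depth was added after seeing the data. In cells with none of the 3 immediate-early genes the summed ratio was 1.37, and 2.08 within the C1q gate, 1.77 against the second lane and -0.57 with 10 immediate-early genes in place of 3, where 11 knockout and 135 WT cells remained. The cause was not tested. No paired analysis was possible because each genotype is 1 pooled library and the result comes from no test. Depth limits 2900052N01Rik and Vwa1 most in WT, with 244 and 520 UMIs.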
